A study of Mus musculus with 4 samples.

Results

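The cells described here are those with NK-cell or T-cell transcripts in the control B220lo library, 1 of 4 single-cell libraries from mouse bone marrow taken 10 weeks after transplantation. All 4 libraries were sorted for CD45.2, a surface form that separates donor from host blood cells in transplants, and each group is 1 library. The groups are control Kit+, Mll3/4 deleted Kit+, Mll3/4SI Kit+ and control B220lo. Kit is a receptor of stem and progenitor cells, and B220 is a form of CD45 best known from B cells. Beyond these names the labels give no alleles, Cre driver, strain or number of mice, and they do not expand SI. Members were chosen by their transcripts among 16329 barcodes of the B220lo library, those that reached 1000 UMIs (unique molecules) and 500 genes and held no more than 10% of mitochondrial UMIs. A member had a UMI of both Nkg7 and Klrd1 (the NK arm of the rule) or at least 2 UMIs summed over Cd3e, Cd3d and Cd3g (the CD3 arm). It also had fewer than 2 UMIs of Cd79a, none of Siglech, and no assembled immunoglobulin contig. This gave 534 cells, 3.27% of the library (95% exact binomial interval 3.003 to 3.555), of 55216 cells kept in the series.

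Natural killer (NK) cells are lymphocytes that kill without a rearranged antigen receptor. They release perforin and granzymes, and they read activating and inhibitory surface receptors encoded in a large gene complex. T cells recognise antigen through a rearranged receptor, made of alpha and beta or of gamma and delta chains, which signals through the CD3 proteins. Both develop from lymphoid progenitors, and marrow holds immature and mature NK cells as well as returning T cells. Some mouse NK cells and some activated T cells carry low levels of B220, which is an alternative protein form that gene counts do not resolve.

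Several of the genes on which the description rests sit close together. In the GENCODE annotation of GRCm38, 17 of the Klr receptor genes looked up, Klrd1 among them, lie between positions 128778485 and 130386874 of chromosome 6. This is a stretch of 1.61 Mb, and other Klr genes in it were not counted. Klrd1 (ENSMUSG00000030165), encoding the CD94 chain of NKG2 receptors, lies there from 129591782 to 129598775 on the plus strand. The 3 CD3 genes lie within 40.1 kb of chromosome 9, from 44969572 to 45009627. Ncr1 (ENSMUSG00000062524), the activating receptor NKp46, lies on chromosome 7 from 4337724 to 4345164. Gzma (ENSMUSG00000023132), the serine protease granzyme A, lies on chromosome 13 from 113093825 to 113100981 on the minus strand. Prf1 (ENSMUSG00000037202), the pore-forming protein perforin, lies on chromosome 10 from 61297833 to 61304680. All are protein-coding, and the counts are of whole genes.

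Upstream flanks of 5 genes are shown for the 2 kinds of member described below: Ncr1, Gzma and Prf1 on the NK side, Cd3d and Cd3e on the T side. Cd3d and Cd3e are genes of the rule, so they separate the 2 kinds by construction. Each flank is the 250 bases before the annotated start, from RefSeq on GRCm38.p6, read in the direction of the gene. RefSeq starts can differ by some bases from the GENCODE ones above, and for Ncr1, with 2 entries, the first is shown. Capitals mark matches on either strand to TGTGGT (reverse complement ACCACA), the core bound by RUNX factors, or to AGGTGT (reverse complement ACACCT), the half-site of T-box factors such as Eomes and Tbx21. The positions are chr7:4337465-4337714 for Ncr1 (plus strand), chr13:113100982-113101231 for Gzma (minus), chr10:61297586-61297835 for Prf1 (plus), chr9:44981536-44981785 for Cd3d (plus) and chr9:45009612-45009861 for Cd3e (minus).
Ncr1: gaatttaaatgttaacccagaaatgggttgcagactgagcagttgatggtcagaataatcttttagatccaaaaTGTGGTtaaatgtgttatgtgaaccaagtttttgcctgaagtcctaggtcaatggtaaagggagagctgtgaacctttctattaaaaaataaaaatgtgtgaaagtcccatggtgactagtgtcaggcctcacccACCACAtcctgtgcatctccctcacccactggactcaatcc
Gzma: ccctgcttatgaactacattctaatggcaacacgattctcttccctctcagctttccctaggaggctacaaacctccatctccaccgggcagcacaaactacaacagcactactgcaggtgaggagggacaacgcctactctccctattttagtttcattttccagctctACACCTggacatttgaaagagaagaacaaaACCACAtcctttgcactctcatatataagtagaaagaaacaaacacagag
Prf1: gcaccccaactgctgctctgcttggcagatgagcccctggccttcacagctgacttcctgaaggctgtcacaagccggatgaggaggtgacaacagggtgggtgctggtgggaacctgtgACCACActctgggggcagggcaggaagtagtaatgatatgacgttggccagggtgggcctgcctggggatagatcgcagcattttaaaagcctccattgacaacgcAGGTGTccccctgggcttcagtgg
Cd3d: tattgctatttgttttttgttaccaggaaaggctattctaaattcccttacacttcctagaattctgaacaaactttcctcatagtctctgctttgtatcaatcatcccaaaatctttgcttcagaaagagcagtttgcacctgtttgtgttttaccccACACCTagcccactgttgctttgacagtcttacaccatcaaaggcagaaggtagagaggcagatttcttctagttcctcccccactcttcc
Cd3e: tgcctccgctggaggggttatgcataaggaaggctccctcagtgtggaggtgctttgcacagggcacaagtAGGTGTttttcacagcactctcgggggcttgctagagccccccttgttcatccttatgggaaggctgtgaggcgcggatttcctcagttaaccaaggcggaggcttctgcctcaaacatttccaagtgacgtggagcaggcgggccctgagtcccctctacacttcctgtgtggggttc

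The flank of Ncr1 held 2 RUNX matches, and those of Gzma and Prf1 held 1 RUNX and 1 T-box match each. The flanks of Cd3d and Cd3e held 1 T-box match each and no RUNX match. Over all 27025 genes with a flank of this length, 14.2% held a RUNX match and 12.0% a T-box match. Of the 33 genes on the lists of NK receptors and cytotoxic genes, 29 were in the table, and 14 of these (48.3%) held a RUNX match and 3 (10.3%) a T-box match. Of the 14 genes with a RUNX match, 1 was among the 9 Klra genes and 13 among the other 20 genes. Of 29 T-cell genes on the T list or encoding CD3 chains, only 15 were in the table, with a RUNX match in 2 (13.3%) and a T-box match in 6 (40.0%). The motifs and the genes were chosen after the levels had been seen, and a match of letters is not a binding site.

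Whether the members were what their name says was checked first. Of the 534, 255 met the NK arm alone (47.8%, interval 43.4 to 52.1), 190 met both arms (35.6%, 31.5 to 39.8) and 89 met the CD3 arm alone (16.7%, 13.6 to 20.1). Median depth was 5155 UMIs in the NK arm, 4981 in both arms and 3994 in the CD3 arm alone. Over the 10 NK markers, which leave out the rule genes, the summed level was 8161 CPM (the gene's UMIs per 1000000 UMIs of the group) in the NK arm. It was 3080 CPM in both arms, 1807 CPM in the CD3 arm alone, 98.0 CPM in B-lineage cells of the library and 58.9 CPM in its plasmacytoid dendritic cells (pDC). B-lineage cells for comparison were the 9091 with Cd79a at 2 or more UMIs and a contig, and pDC were the 1389 with Siglech at 2 or more, fewer than 2 of Cd79a and no contig. Leaving out Cd79a, which chose the cells, 10 B-lineage markers summed to 480.0 CPM, 619 CPM and 359 CPM in the NK arm, both arms and CD3 arm alone, against 9619 CPM in B-lineage cells. The absence of contigs, also part of the rule, bears on these genes too. Leaving out the CD3 genes, 8 T markers summed to 178 CPM, 831 CPM and 542 CPM in the same order, against 21.6 CPM in B-lineage cells. Of the innate lymphoid markers, Il23r and Il22, genes of type-3 cells, had no UMI in any of the 534 members. That allows up to 0.562% of cells with one, an approximate limit tighter than the exact interval. Kit, on the same list and also a gene of progenitors, was found in 49 members, at 28.9 CPM against 5.19 CPM in B-lineage cells. The type-2 list summed to 98.7 CPM in the NK arm and 199 CPM in the CD3-positive members defined next, with Areg and Il9r at 0.

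The CD3 arm alone held cells that go against the name. In 23 of its 89 cells S100a8, a calcium-binding protein of neutrophils, had 10 or more UMIs. All 23 had Cd3d UMIs and none had Cd3e or Cd3g. The 10 granulocyte markers summed to 134252 CPM in the CD3 arm alone, to 212 CPM in the NK arm and to 133 CPM in both arms. In the whole library 239 kept cells had this much S100a8, and 74 of them (31.0%) had a Cd3d UMI, at 53.6 CPM, while none had Cd3e or Cd3g. In B-lineage cells with less S100a8 the Cd3d share was 1.02%, at 5.28 CPM. The cells with 10 or more S100a8 UMIs are therefore left out below where T cells are described, a limit set after the values were seen. The 256 other members with a CD3 sum of at least 2 are called CD3-positive members. Their median depth was 4702 UMIs. They had Cd3e in 87.9% and Cd3g in 93.4% of cells and 148 CPM of granulocyte markers, values that follow in part from how they were chosen.

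Cells near the limits of the rule were mixed. The 7 NK-arm cells with exactly 1 UMI each of Nkg7 and Klrd1 included 5 with Ncr1. Just outside, of 103 cells with Nkg7 but no Klrd1, 32 had Ncr1, and of 41 cells with Klrd1 but no Nkg7, 1 did. The Klrd1-only cells held 1394 CPM of Irf8, a factor at 2961 CPM in pDC, and 73.9% of pDC had a Klrd1 UMI. At a CD3 sum of exactly 2, 16 of 26 cells of the CD3 arm alone had 10 or more S100a8 UMIs and 6 had a Trbv transcript. At a sum of 1, outside the rule, these counts were 30 and 1 of 47 cells. Before the exclusions on Cd79a, Siglech and contigs, 887 cells met an arm. Of these, 254 had 2 or more Cd79a UMIs, 162 a contig and 118 a Siglech UMI, with overlap. Ncr1 was found in 540 of the 887 and in 359 of the 534 that remained.

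Receptor and killing genes led the NK arm. Ncr1 was found in 94.1% of NK-arm cells and in 46.5% of CD3-positive members, or 64.3% and 29.7% with every cell thinned to 1000 UMIs. B-lineage cells gave 1.57% and, thinned, 0.649%, a background that free RNA or mixed droplets could give in those cells. The part of free RNA or mixed droplets in CD3-positive members was not tested. Per cell, the median was 5 UMIs of Ncr1 (0 to 23) in the NK arm and 0 (0 to 28) in CD3-positive members. Summed, Ncr1 stood at 1014.5 CPM (965 to 1065) and 499.9 CPM (462 to 540), a ratio of 2.03 (1.85 to 2.23). So transcripts of the NK receptor were also found in a large share of CD3-positive members, and the ranges of the 2 groups overlapped. These and all later intervals are 95% exact Poisson or binomial intervals and cover counting error only. With 1 library there is no replicate, and no test was made.

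Gzma set the groups further apart. Its median was 15 UMIs per cell (0 to 83) in the NK arm and 0 (0 to 35) in CD3-positive members, at 3078 CPM (2992 to 3165) and 126 CPM (108 to 147). Thinned, 70.6% and 5.86% of cells had it, against 0.792% of B-lineage cells. Prf1 stood at 243 CPM (219 to 268) and 52.8 CPM (41.1 to 66.9). A UMI of both Gzma and Prf1 was found in 147 of 255 NK-arm cells (57.6%) and in 13 of 256 CD3-positive members (5.08%), against 0.484% of B-lineage cells.

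**Figure D1:**
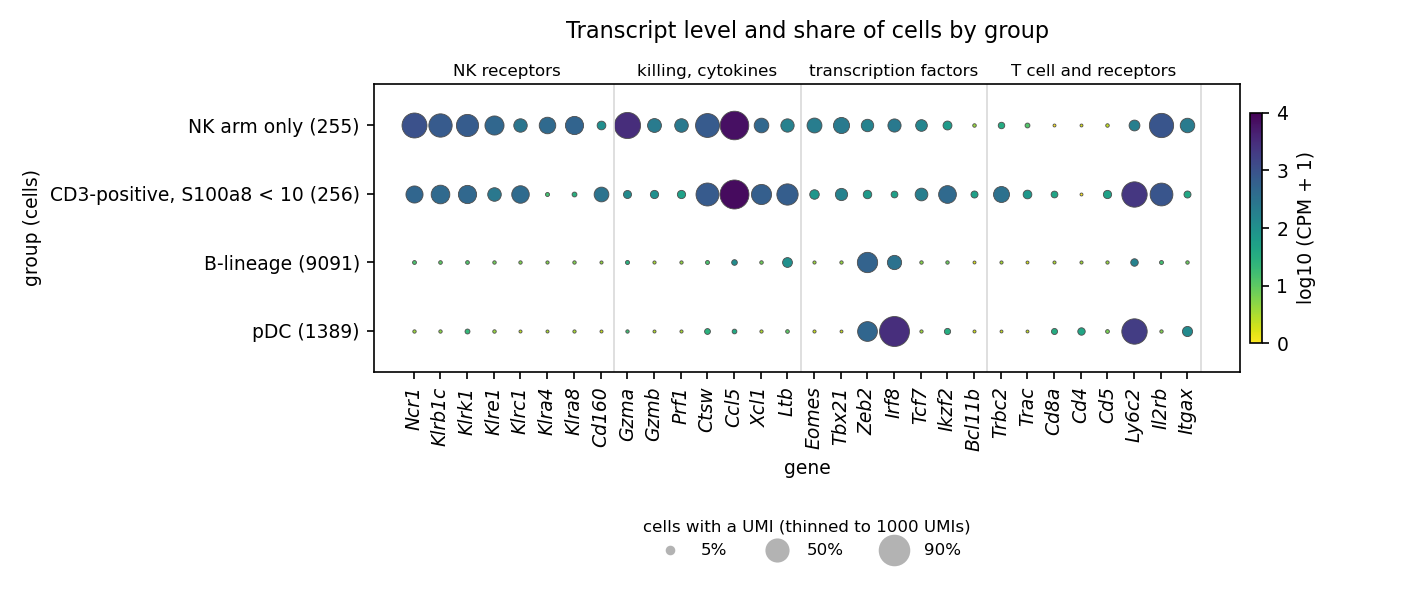
Levels in NK-arm cells, CD3-positive members, B-lineage cells and pDC, with the number of cells in brackets. Colour gives log10 of CPM plus 1 and dot area the percent of cells with a UMI after thinning to 1000 UMIs. Gzma, Klra4 and Klra8 are high in the NK arm alone among the 4 groups drawn, Ly6c2 is high in CD3-positive members and pDC, and Ccl5 and Il2rb are within 2-fold between NK-arm cells and CD3-positive members.

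Over all genes, NK-arm cells were set against CD3-positive members by the log2 ratio of CPM with 1 CPM added. A gene entered where the higher group had at least 50 UMIs, and it was counted as different at 2-fold or more. Of 5163 genes, 7.24% were past 2-fold, 4.67% higher and 2.58% lower in the NK arm, and the median log2 ratio was 0.14. Genes past 2-fold numbered 374, 241 higher and 133 lower, and 241 without the 49 cells of cluster 3, 125 higher and 116 lower. Both groups were chosen by their transcripts, so these values describe them.

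Receptors and their signals came first. Of 22 NK receptor genes, 18 passed the minimum, 7 were higher and 2 lower in the NK arm, with a median log2 ratio of 0.78. Among genes found in at least 5% of the cells, the highest was Klra4, an activating Ly49 receptor, at 427 CPM against 14.5 CPM (ratio 29.3, interval 18.6 to 49.1). Klra8, the Ly49 receptor that binds a cytomegalovirus protein, stood at 531 against 29.1 CPM (18.2, 13.2 to 26.0). Klri2, a lectin-like receptor, had a log2 ratio of 3.42 and Klra3 one of 1.53. On the other side, Klra6 stood at -2.09, and Cd160, a receptor of NK and CD8 T cells, at -1.45. Klrb1c (NK1.1, at 0.79), Klrk1 (NKG2D, at 0.65) and Klrc1 (NKG2A, at -0.57) were within 2-fold. Klra, Klrc and Klri genes are close copies of each other, and reads of one may have been counted for another or dropped.

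Klra genes with a UMI were counted per cell, with the same limit that close copies may be mistaken for each other. At least 1 of 9 Klra genes was found in 91.0% of NK-arm cells (86.8 to 94.2) and 65.6% of CD3-positive members (59.5 to 71.4). Thinned to 1000 UMIs the shares were 72.5% and 34.0%. NK-arm cells had a median of 3 and at most 7 of the 9 genes, and 190 of 255 had at least 2. Thinned, the median was 1, the maximum 4, and 104 of 255 had at least 2. Of 256 CD3-positive members, 93 had at least 2, or 24 thinned.

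Of 13 signal adaptors, all 13 passed the minimum, 3 were higher and 2 lower. Tyrobp (DAP12, the partner of activating Ly49 receptors) had a log2 ratio of 1.34, the kinase Syk 1.21 and Sh2d1b1 (EAT-2) 1.71. Lat, the scaffold of the T-cell receptor, stood at -1.96. Fcer1g, the adaptor of NKp46, was within 2-fold at 0.66, with 1421 CPM in the NK arm and 901 CPM in CD3-positive members. Cd247, the zeta chain that both cell types use, stood at -0.62.

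Killing and cytokine genes lay on both sides. Of 11 cytotoxic genes, 8 passed the minimum, 4 were higher (Gzma 4.60, Prf1 2.18, the granzyme inhibitor Serpinb9 1.75, Gzmb 1.09) and Tnfsf10, the death ligand TRAIL, was lower at -1.39. Ctsw, a protease of killer cells, stood at -0.01, with 724 and 728 CPM. Of 11 cytokine and chemokine genes, 5 passed. The chemokines Ccl3 (2.51) and Ccl4 (2.53) were higher in the NK arm and Ltb, lymphotoxin beta, was lower (-1.90). The chemokine Ccl5 was high in both, at 6949.6 CPM (6820 to 7081) and 7693 CPM (7544 to 7845), with medians of 39 and 38 UMIs per cell. Xcl1, which draws cross-presenting dendritic cells, had a median of 0 UMIs (0 to 63) in NK-arm cells and 2 (0 to 37) in CD3-positive members, and its log2 ratio was -0.44. Ifng was low in both, at 20.2 and 12.2 CPM.

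Among 18 transcription factors, 11 passed and the list's median was 0.13. Eomes and Zeb2, which act in NK maturation, were higher at 1.44 and 1.29. Ikzf2 (Helios) was lower at -2.65, with 67.7 CPM against 429 CPM (395 to 467), and Bcl11b, needed for T-cell commitment, stood at -3.71. Tbx21 (T-bet) was within 2-fold at 0.51. Eomes and Tbx21 were found together in 121 NK-arm cells (47.5%) and in 38 CD3-positive members (14.8%). Foxp3, of regulatory T cells, had no UMI in either group.

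Lists of maturation genes share members with other lists, so their counts are not separate. Gzma, Gzmb, Zeb2 and Ltb were counted above, and Il7r and S1pr5 are counted again below. Set against CD3-positive members, these lists do not give the stage of the NK cells. Of 10 mature NK genes, 6 passed, 5 were higher and none lower, with a median of 2.34. Itgam, the integrin CD11b, stood at 3.40, and S1pr5, which lets NK cells leave the marrow, at 35.4 against 1.53 CPM, from 56 and 2 UMIs (ratio 23.1, 6.11 to 196). Of 10 immature NK genes all passed, 3 were lower and none higher, with a median of -0.49: the interleukin-7 receptor Il7r (-2.02), Ltb (-1.90) and Thy1 (-1.16). Of 26 T-cell genes, 17 passed, 8 were lower in the NK arm and none higher, with a median of -0.95. Cd8a had 0 UMIs in the NK arm and 58 in CD3-positive members, at least 23.4-fold lower in the NK arm at a floor of 3 counts in the group. The surface receptor Cd5 and the signalling protein Themis each had 2 UMIs in the NK arm and 68 in CD3-positive members (ratio 0.0243, interval 0.00288 to 0.0912). Of the 7 gamma-delta genes, 3 passed and all 3 were lower.

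**Figure D2:**
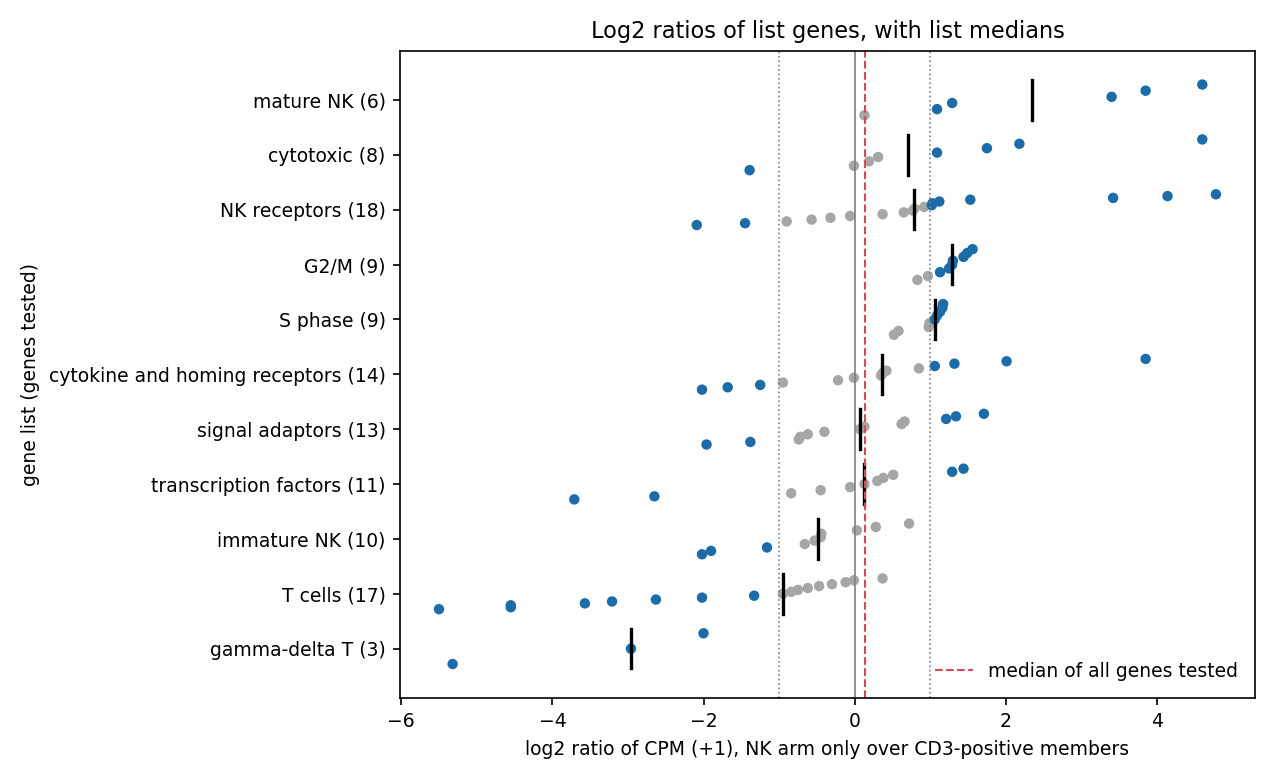
Log2 ratio of CPM (1 added) between NK-arm cells and CD3-positive members for the tested genes of 11 lists, 1 point per gene. Black bars are list medians, blue points are past 2-fold (dotted lines) and the dashed line is the median of all genes, 0.14. Mature NK genes reach a median of 2.34 and T-cell genes one of -0.95.

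Homing and surface genes also differed. Of 19 cytokine and homing receptors, 14 passed, 4 were higher and 3 lower. Ccr2 (2.01), the integrin Itga2 (CD49b, 1.32), the interleukin-18 receptor Il18r1 (1.06) and S1pr5 were the higher ones. Il7r, Il21r (-1.68) and Cxcr3 (-1.25) were the lower. Without cluster 3 Cxcr3 (-0.99) and Thy1 (-0.98) were within 2-fold, as was the activation marker Cd69 (-0.88, from -1.33). Il2rb, the beta chain through which interleukin-15 signals, stood at 868 and 871 CPM (ratio 0.996, 0.920 to 1.08) and was found in 93.3% and 89.8% of cells. Ly6c2, a surface protein of memory T cells, monocytes and pDC, had a median of 0 UMIs (0 to 29) in NK-arm cells and 9 (0 to 55) in CD3-positive members, at 194 CPM (172 to 216) and 2309.8 CPM (2228 to 2394). Thinned, 11.4% and 66.4% of cells had it, with 5.02% of B-lineage cells and 66.5% of pDC. Ly6c2 has a near-identical neighbour, so its counts are uncertain.

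The library was sorted for low B220, and B220-bearing NK cells with CD11c have been called interferon-producing killer dendritic cells. Ptprc, which encodes all CD45 forms and so B220, stood at 1514 CPM in NK-arm cells, 1578 CPM in CD3-positive members, 368 CPM in B-lineage cells and 579 CPM in pDC. Itgax, which encodes CD11c, stood at 223 CPM (200 to 247) in NK-arm cells and 40.6 CPM (30.4 to 53.1) in CD3-positive members. It was found in 61.2% and 14.1% of cells (21.2% and 4.30% thinned), and 151 NK-arm cells had it together with Ncr1 (59.2%). The class II genes H2-Aa (-0.81) and H2-Ab1 (-1.21) turned on the 49 cells of cluster 3, described below, 42 of the NK arm and 7 of both arms. Without these cells H2-Aa stood at 27.5 and 21.4 CPM and H2-Ab1 at 30.2 and 30.4 CPM. Markers of conventional dendritic cells, H2-Ab1 among them, had a median of 0 UMIs in CD3-positive members but reached 326 in a cell. The part of single cells in the class II ratios was not tested. Irf8 was found in 57.6% of NK-arm cells, or 17.3% thinned, against 3.91% of CD3-positive members thinned. The 10 pDC markers, Irf8 among them, summed to 692 CPM in the NK arm (median 2 UMIs a cell, 0 to 190) and 304 CPM in CD3-positive members (median 1, 0 to 18), and 5 of the 6 above the minimum were 2-fold higher in the NK arm. Of the pDC list, Siglech and Klk1 had no UMI in the NK arm, Siglech by the rule. The part of pDC RNA in Irf8 was not tested.

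Within the NK arm, Cd27 and Itgam mark the usual course from immature to mature cells. Cd27 alone was found in 76 cells (29.8%, 24.3 to 35.8), both genes in 23 (9.02%), Itgam alone in 51 of 255 (15.3 to 25.4) and neither in 105 (41.2%). Median depth was 5950.5 UMIs in the Cd27 cells and 4265 in the Itgam cells, and a cell without a UMI may still express the gene. Itgam cells held more Gzma, 6177 CPM (5865 to 6501) against 2387 CPM (2252 to 2529). They held more Prf1, 499 CPM (413 to 597) against 185 CPM (148 to 227). S1pr5 was at 113 CPM (74.6 to 164.7) against 26.7 CPM (14.2 to 45.6). The terminal-maturation receptor Klrg1 was at 92.3 CPM (57.8 to 139.7) against 12.3 CPM (4.52 to 26.8), and Cma1, a chymase gene, at 79.7 against 10.3 CPM. Ccl5 was at 11704 against 6541 CPM. Xcl1 went the other way, at 264 CPM (203 to 338) in Itgam cells and 671 CPM (600.0 to 747) in Cd27 cells, as did Emb, a surface glycoprotein, at 256 and 406 CPM. Ncr1 was high in both, at 1359 and 1062 CPM. The factor Tcf7 stood at 126 CPM (84.9 to 179.6) and 162 CPM (128 to 202), and these intervals overlap. Of the other immature NK genes, Cd7 (566 and 810 CPM) was lower in Itgam cells. Thy1 (130 and 172 CPM), Kit (21.0 and 32.8 CPM) and Il7r (41.9 and 45.1 CPM) were lower there too, but with overlapping intervals. Ltb (252 and 176 CPM) and Ctla2a (474 and 445 CPM) were higher there, with overlapping intervals. This split was chosen after other values had been seen.

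Among T-cell receptor transcripts, V segments of the beta chain separated the arms. Trbv genes were found in 5 of 255 NK-arm cells (1.96%, 0.640 to 4.52), in 130 of 190 cells of both arms (68.4%, 61.3 to 74.96) and in 40 of the 66 cells of the CD3 arm alone with fewer than 10 S100a8 UMIs (60.6%, 47.8 to 72.4). B-lineage cells gave 0.682%. Gamma V genes followed the same order, with 2.75% of NK-arm cells, 71.6% of both arms and 53.0% of those 66 cells. The beta constant genes were less clear, with 82 NK-arm cells (32.2%) and 176 CD3-positive members (68.8%). Delta V genes were the exception. They were found in 125 NK-arm cells (49.0%, 42.7 to 55.3) and in 58 CD3-positive members (22.7%, 17.7 to 28.3), against 0.715% of B-lineage cells. In the NK arm Trdv2-2 (123 UMIs in 84 cells) and Trdv4 (107 UMIs in 66 cells) gave most of them, while the constant gene Trdc was found in 31 cells (12.2%). The counts do not show whether a V transcript was rearranged.

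**Figure D3:**
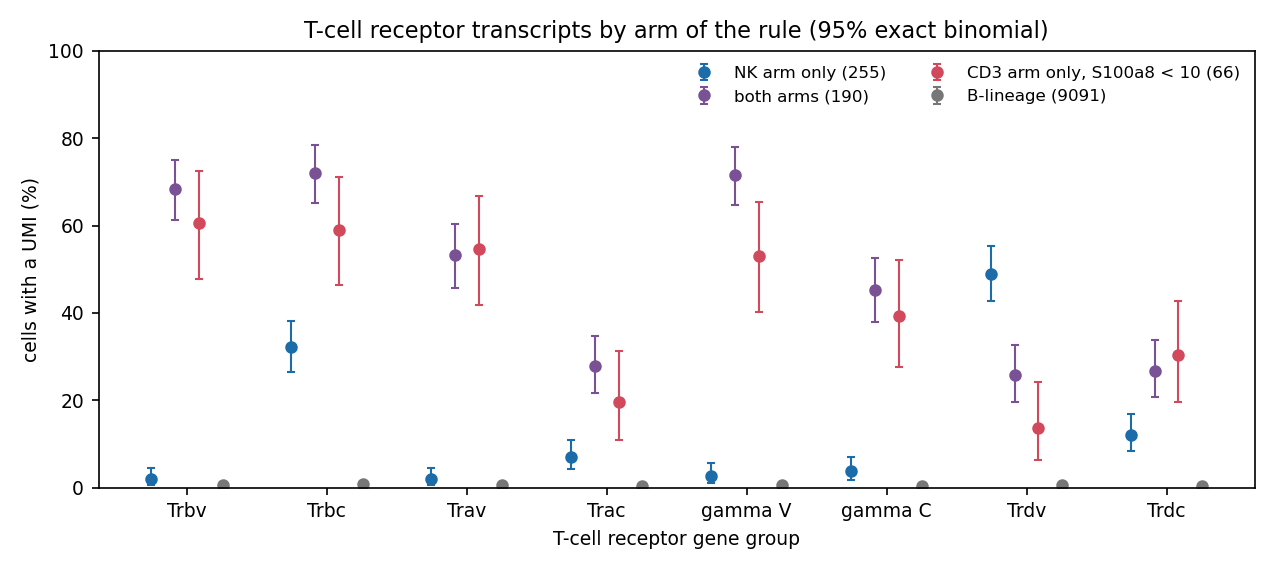
Percent of cells with a UMI of each group of T-cell receptor genes in NK-arm cells, cells of both arms, CD3-arm-only cells with fewer than 10 S100a8 UMIs and B-lineage cells. Points are shares and bars 95% exact binomial intervals. Trbv stands at 1.96% in the NK arm and 68.4% in both arms, while Trdv is higher in the NK arm (49.0%) than in both arms (25.8%).

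Among the 256 CD3-positive members, 145 had 2 or more Trbv UMIs, 25 had 1 and 86 had none. In the 145, the median was 7 Trbv UMIs, 91 cells had a single Trbv gene and 114 had at least 80% of their Trbv UMIs from 1 gene. Of 35 Trbv genes in the files, 20 led at least 1 cell. Trbv12-2 led 30 cells (20.7%, 14.4 to 28.2), Trbv3 and Trbv13-1 led 13 each and Trbv16 led 12. So the beta-chain transcripts came from many V genes and were mostly 1 per cell.

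The 145 cells and the 86 without Trbv differed in other receptor genes. Trac was found in 35.2% (27.4 to 43.5) and 10.5% (4.90 to 18.9), and Trdc in 14 of 145 (9.66%, 5.38 to 15.7) and 43 of 86 (39.0 to 61.0). At least 2 delta UMIs were found in 14 of 145 and 36 of 86 cells. They were also found in 74 of 250 NK-arm cells without Trbv, so they were not particular to CD3-positive members. Gamma V genes were found in 98 of the 145 and 53 of the 86, and Trgv2 alone in 56.6% and 45.3%. The beta constant gene Trbc2 was as frequent in both, 69.7% and 65.1%, and it is a near copy of Trbc1. Ncr1 was more frequent without Trbv, 66.3% (55.3 to 76.1) against 33.8% (26.2 to 42.1), and Tyrobp stood at 1370 against 579 CPM, although its shares of cells, 66.3% and 62.1%, had overlapping intervals. Cd5 went the other way, at 26.9% with Trbv and 9.30% without. Xcl1 and Il2rb had overlapping intervals, at 75.9% and 72.1% and at 89.0% and 91.9% of cells. Ccl5 was found in nearly all cells, 91.0% and 94.2%, and its level was higher without Trbv, 8790 CPM (8515 to 9072) against 6972 CPM (6784 to 7163). Median depth was 4795 and 4388 UMIs.

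Coreceptor transcripts were found in few cells. Cd4, the coreceptor of helper T cells, was found in 0 of 256 CD3-positive members. That allows up to 1.17% of cells with a UMI, an approximate limit tighter than the exact interval. Cd8a or Cd8b1 was found in 35 (13.7%, 9.71 to 18.5), and neither Cd4 nor a CD8 gene in 221 (86.3%, 81.5 to 90.3). A cell without a UMI may still express the gene, and Trac was found in only 35.2% of the 145 cells with Trbv. The 221 cells are therefore not shown to lack coreceptors. CD8 genes were found in 32 of the 145 cells with Trbv (22.1%, 15.6 to 29.7) and in 0 of the 86 without (interval 0 to 4.20%). In B-lineage cells CD8 genes were found in 0.957%.

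**Figure D4:**
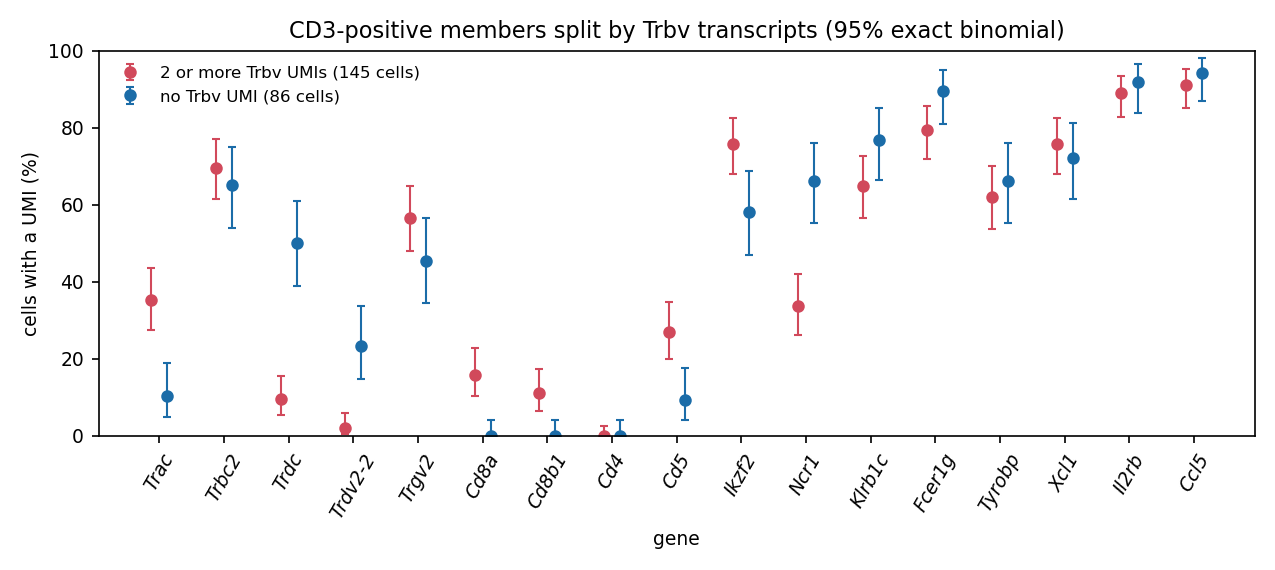
Percent of CD3-positive members with a UMI of each gene, in 145 cells with 2 or more Trbv UMIs and in 86 cells with none, with 95% exact binomial intervals. Trac, Cd8a and Cd5 are more frequent with Trbv, Trdc and Ncr1 without, and the bars of Xcl1 and Il2rb overlap, as do those of Ccl5, which differed in CPM.

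Proliferation genes were higher in the NK arm than in CD3-positive members. Of 10 S phase genes, 9 passed and 5 were higher (median 1.06), and of 10 G2/M genes 9 passed and 7 were higher (median 1.29), none lower in either list. Mki67 stood at 320 CPM (293 to 349) and 129 CPM (111 to 150). With cells thinned to 1000 UMIs, 2 or more G2/M UMIs were found in 26.3% of NK-arm cells (21.0 to 32.1), 10.9% of CD3-positive members (7.39 to 15.4), 27.5% of B-lineage cells and 18.7% of pDC. Unthinned, the first 2 shares were 72.5% and 61.3%. Cluster 3 below, with 42 NK-arm cells and a median of 11219 UMIs, held 881 CPM of Mki67. Without it 6 S phase and 3 G2/M genes still had 50 UMIs and none of them was past 2-fold. Their medians were 0.41 and 0.58, against 0.07 over all genes, and Mki67 stood at 96.1 and 50.1 CPM (0.93). Proliferation genes were among those that formed the cluster, so leaving it out removes such cells by construction.

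Set against the other cells of the sort, most NK genes were higher in members. Against B-lineage cells, 26.6% of 11166 genes were past 2-fold, 7.79% higher (870 genes) and 18.9% lower (2105) in members, with a median log2 ratio of -0.29. The minimum of 50 UMIs bears on this split, because it is a higher CPM in members (3047388 UMIs) than in B-lineage cells (46666105 UMIs). With no minimum, 1669 genes were higher and 2127 lower. Of 18 NK receptor genes tested, 17 were higher and 1 lower (median 5.46), of 9 cytotoxic genes 8 were higher and none lower (5.06), and of 14 transcription factors 12 were higher and 1 lower (3.69). With 10 CPM in place of 1 added, 695 genes were higher and 869 lower. The top genes were Xcl1 (512 against 6.60 CPM), Ccl5 (6904 against 115 CPM), Gzma and Klrb1c. Ncr1 stood at 741 CPM (710 to 772) and 12.99 CPM (11.97 to 14.1). The lowest genes were of B cells, such as the surface protein Ms4a1 (-5.76) and the immunoglobulin joining chain Jchain (-5.62), and since the rule removed cells with Cd79a and contigs this side was largely set by the rule. G2/M genes were lower in members, 9 of 10 past 2-fold (median -1.24), while of 10 S phase genes only 1 was lower and none higher (median -0.38). Against pDC, 25.0% of 9583 genes were past 2-fold, 8.63% higher and 16.4% lower (median -0.15), or 1664 higher and 2086 lower with no minimum. Of 18 NK receptor genes, 17 were higher than in pDC and none lower (6.22). Ncr1 (7.54) and Ccl5 (7.50) led there. Nkg7, a rule gene, was found in 3.96% of pDC.

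Kmt2c and Kmt2d, which encode the MLL3 and MLL4 methyltransferases of the series title, were checked as well, in a library labelled as control. Kmt2c stood at 116 CPM in NK-arm cells, 137 CPM in CD3-positive members and 139 CPM in B-lineage cells. Kmt2d stood at 34.8, 32.9 and 38.9 CPM. Both were within 2-fold in the comparisons of NK-arm cells with CD3-positive members and of all members with B-lineage cells and pDC.

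NK-arm cells set against all 89 cells of the CD3 arm alone brought in the 23 S100a8 cells. There 17.2% of 4012 genes were past 2-fold, 14.4% higher and 2.79% lower, with a median of 0.43. The minimum of 50 UMIs bears on this split, because it is a higher CPM in the smaller group (415166 UMIs, against 1581100 in the NK arm). With no minimum, 2734 genes were higher and 2016 lower. The lowest genes included Camp (-10.41), Ngp (-10.29) and S100a8 (-10.25), all of neutrophils, and without the S100a8 cells Camp stood at 1.26. On the other side, Gzma had 4866 UMIs in the NK arm and 5 in the CD3 arm alone (ratio 256, interval 109 to 787). Klra4 and Klri2 had none in the CD3 arm alone and were at least 59.1-fold and 45.4-fold higher in the NK arm, at the floor of 3 counts in the group. Of 10 T-cell genes tested, 4 were lower and none higher.

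Clustering on 1000 variable genes, with receptor segments, rule genes, mitochondrial and ribosomal protein genes left out, gave 7 clusters. Their leading genes are how they were formed and are given as a description. Rule genes and receptor segments were left out of the leading genes too, so Cd3e, Cd3d, Cd3g, Trac, Trbc1 and Trbc2 could not appear there. Cluster 0 (199 cells, 182 of the NK arm) was NK-like, with 8 of 10 NK markers at 2-fold or more over the other clusters and Gzma, S1pr5, Cma1 and Klra4 among its 10 leading genes. Cluster 1 (191 cells, 149 of both arms and 39 of the CD3 arm) was given no name. Hopx, Xcl1, Ltb and Ly6c2 were among its 10 leading genes, of which Ly6c2 is on the monocyte list. None is a T marker, but the CD3 and receptor genes among those markers could not appear. Of 11 T markers, CD3 genes included, 5 were 2-fold over the other clusters. Cluster 1 held 185 cells with Cd3d, a rule gene, 136 with Trbv and 84 with Ncr1. Cluster 6 (9 cells, 3 of both arms and 6 of the CD3 arm) was T-like by 11 of 11 markers at 2-fold. These include the CD3 genes, by which all 9 cells were chosen. Cluster 6 was led by Cd8b1 and Themis, its 10 leading genes held none of the cell type markers, and all 9 cells had Trbv and CD8 transcripts. The share of all genes at 2-fold in each cluster is not given here, so these marker counts stand without a background.

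Clusters 2, 3 and 5 also were left without a name. Cluster 3 (49 cells, 42 of the NK arm) had a median of 11219 UMIs, and its leading genes were of proliferation (Shcbp1, Mxd3, Pclaf), class II (H2-Aa, H2-Eb1) and progenitors (Mpo, Dntt). Its Scrublet doublet score was 0.25 or more in 8 of 49 cells (16.3%), against 3.75% of all members. Cluster 2 (50 cells from all arms) had 2.35% of its UMIs from ribosomal protein genes, where cluster 4 had 3.74% and the other 5 clusters 18.8% to 25.7%, and 14152 CPM of the nuclear RNA Malat1. Cluster 4 (24 cells) held the 23 S100a8 cells and was granulocyte-like, with 7 granulocyte markers among its 10 leading genes. Granulocyte markers summed to 330424 CPM there and NK markers to 160 CPM. Cluster 5 (12 cells) had 3 or more UMIs of the B-cell factor Ebf1 in all 12 cells, and 9 of the 12 scored 0.25 or more. Whether doublets account for clusters 3 and 5 was not tested. Without the 86 cells of clusters 2, 4 and 5, members make up 2.74% of the library.

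**Figure D5:**
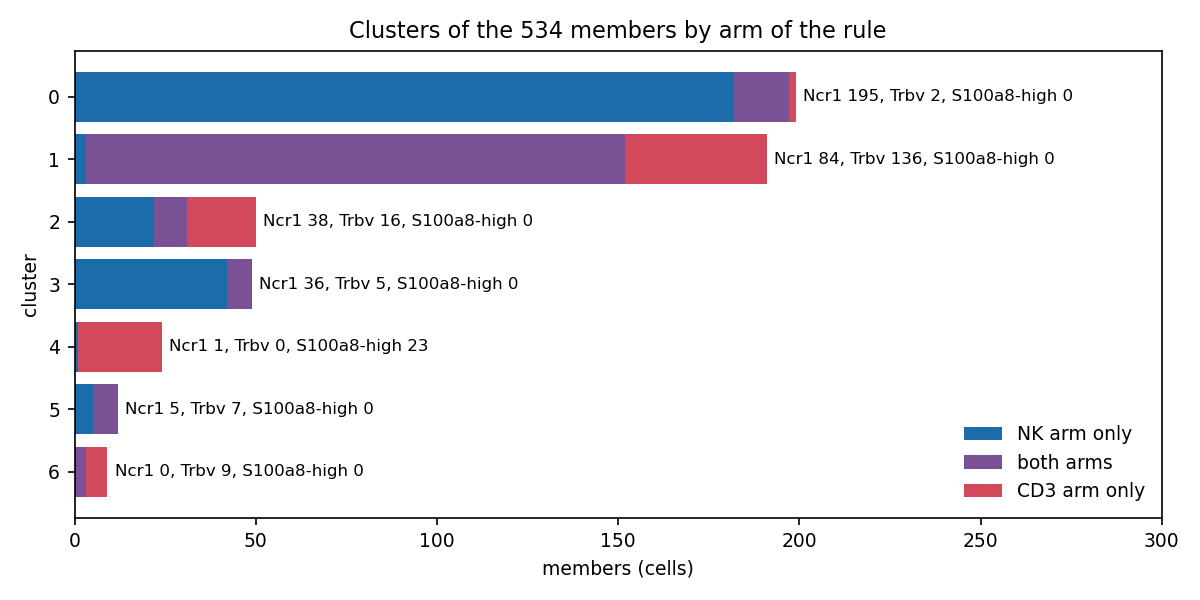
Members in each of the 7 clusters, with bar length the number of cells and colour the arm of the rule. The labels give cells with Ncr1, with a Trbv transcript and with 10 or more S100a8 UMIs. Clusters 0 and 1 hold 199 and 191 cells, and the 23 S100a8 cells all lie in cluster 4.

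The same rule was applied to the Kit+ libraries, where the sort differs. It found 35 cells of 11891 in control Kit+ (0.294%, 0.205 to 0.409), 7 of 14915 in Mll3/4 deleted Kit+ (0.0469%, 0.0189 to 0.0967) and 56 of 12081 in Mll3/4SI Kit+ (0.464%, 0.350 to 0.602). Ncr1 was found in 7, 0 and 24 of them, Trbv in 5, 2 and 16, and Mpo, the neutrophil enzyme myeloperoxidase, in 29, 3 and 40, against 359, 175 and 33 of the 534 B220lo members. S100a8 reached 10 UMIs in 0, 2 and 9. Genotype, library and, between Kit+ and B220lo, the sort cannot be told apart with 1 library each. Stricter limits (2 UMIs each of Nkg7 and Klrd1, or a CD3 sum of 3) left 0.118% in control, 0.0268% in Mll3/4 deleted and 0.306% in Mll3/4SI Kit+ cells.

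In the data as a whole, the B220lo library held 16861 barcodes and 85445426 UMIs, with a median of 3354 UMIs per kept cell, and the Kit+ libraries held 12205 to 15091 barcodes and 130424242 to 166327773 UMIs. Of the member barcodes, 5, 13 and 7 also occurred in the control, deleted and SI Kit+ libraries, and none of these was a member there. No Y-linked UMI was found in the 534 members (up to 0.562% of cells, an approximate limit tighter than the exact interval), while 9 of 9091 B-lineage cells had one. Xist was found in 68.7% of members (55.1% in the CD3 arm alone), 68.5% of B-lineage cells and 90.5% of pDC.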

How the data were processed

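Per the labels' protocols, cells were captured on the 10x Genomics Chromium system, with chemistry 5′ v2, in 4 libraries. The authors deposited UMI counts per gene and barcode, made with Cell Ranger 7.1.0 on mm10 per the submitters' processing notes, and a table of assembled immunoglobulin contigs for each library. The gene annotation used for counting is not given in the sources used here. All libraries are 1 per group, so values carry exact counting intervals at 95% and no test between conditions was made. Limits given for 0 cells with the words up to are approximate and tighter than the exact intervals. CPM were computed from summed counts with a pseudocount of 1 for log2 ratios, and a floor of 3 counts in the group stands for 0. Thinning drew 1000 UMIs per cell without replacement.

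The named genes are the 10 highest and 10 lowest ratios per comparison among genes with 50 UMIs in the higher group and in at least 5% of its cells, leaving out rule genes, receptor segments, mitochondrial, ribosomal and unnamed genes, plus the gene lists. The members and lists were chosen with earlier results of these data known. Clusters used scanpy 1.11.5 and leidenalg 0.10.2 (20 components, 15 neighbours, resolution 0.5). Scrublet set no threshold of its own that marked any cell, so no doublet was removed and a score of 0.25 is used as a description. The ratio step was tested on simulated Poisson counts with no spread between cells, and the interval steps were not tested. Promoter flanks and positions are on GRCm38, the assembly of mm10, and all 165 genes looked up were placed. Python 3.11.15, numpy 2.4.6, scipy 1.17.1 and pandas 2.3.3 were used. Some genes of the lists are not reported here.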

Additional observations from a re-analysis of the deposited data

How the results depend on the processing

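No paired analysis was possible because each group is 1 library. Members made up 3.27% of the B220lo library, 3.66% with the strict cell filter (2000 UMIs, 1000 genes, 5% mitochondrial), 2.74% with stricter rule thresholds, 2.24% with Cd79a at 0, 3.66% with no limit on Siglech and 2.74% without clusters 2, 4 and 5. Leaving out those clusters, cluster 3, or the cells with 10 or more S100a8 UMIs, was chosen after seeing the data. Stricter thresholds gave 0.118% of control and 0.306% of Mll3/4SI Kit+ cells. The Trbv share of members with a CD3 sum of 2 or more moved from 60.9% to 67.4% without the 3 clusters. The thinned Ncr1 share of NK-arm cells moved from 64.3% to 94.1% with no thinning and 79.4% at 2000 UMIs. Genes past 2-fold numbered 690 between the NK arm and the CD3 arm alone, and 431 with stricter thresholds. With no minimum of UMIs they numbered 4750 (2734 higher and 2016 lower, from 578 and 112). Between members and B-lineage cells they numbered 2975, and 1564 with a pseudocount of 10 CPM (695 higher and 869 lower, from 870 and 2105). Between members and pDC they numbered 2395, and 3750 with no minimum. Between NK-arm cells and CD3-positive members they numbered 374, 2460 with no minimum and 241 without cluster 3 (125 higher and 116 lower). Resolution 0.25 gave 4 clusters in place of 7.

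A difference past 2-fold changed direction between the NK arm and the CD3 arm alone in 9 of 981 recomputed values of named genes of any size, between NK-arm cells and CD3-positive members in 1 of 1143 (Rrm2, at -0.20 without cluster 3) and in none of the comparisons with B-lineage cells and pDC. Differences under 2-fold, such as H2-Aa and Ccl5 without cluster 3 (0.35 and 0.23, from -0.81 and -0.15), are not in these counts. Many more values left the counting interval of the main ratio without such a reversal. They numbered 469 of 1260 against B-lineage cells and 232 of 1269 against pDC. Between the NK arm and the CD3 arm alone they numbered 213 of 981, and between NK-arm cells and CD3-positive members 94 of 1143. Between the NK arm and the CD3 arm alone H2-Aa stood at -1.94 with stricter thresholds, and the cause was not tested. Without the S100a8 cells Camp stood at 1.26, Chil3 at 1.18, Itgam at 3.93 and Retnlg at 1.18, and without the 3 clusters at 0.98, 1.24, 6.16 and 0.75, since those cells carried these genes.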

Other observations

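The B-lineage transcripts left in members were few but uneven. The pre-B-cell receptor partner Vpreb3 stood at 86.0 CPM in NK-arm cells and 84.2 CPM in CD3-positive members, and the 11 B-lineage markers reached 83 UMIs in 1 NK-arm cell at a median of 2. Erythroid markers summed to 230 CPM in NK-arm cells, most of it from the carbonic anhydrase Car2 with 269 UMIs in 127 cells, while Car1, of the same family, gave 63 UMIs in 2 cells. Kit was found in 49 of the 534 members.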
